A study of Mus musculus and Rattus norvegicus with 35 samples.

Results

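Microtubule-associated proteins and neurofilaments build the inner skeleton of the neuron, and 9 of their genes are described here. They were chosen by symbol: Map1a, Map1b, Map2, Map4 and Mapt, which encode proteins that bind microtubules, and Nefl, Nefm, Nefh and Ina, which encode subunits of the neuronal intermediate filament. All 9 were found among 24601 mouse and 22409 rat gene rows; the mouse table lists the Map genes under their older symbols Mtap1a, Mtap1b, Mtap2 and Mtap4. Circular RNAs (circRNAs, closed loops of RNA made when the end of an exon is spliced back to an upstream start) with these hosts numbered 25 of 28482 in mouse and 17 of 18075 in rat.

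Microtubules are polar tubes of tubulin that carry transport along axons and dendrites, and the proteins bound along them set their stability and spacing. Tau, the product of Mapt, is known mainly from axons and Map2 mainly from dendrites, whereas Map4 is the family's member in many cells that are not neurons. Map1a and Map1b encode large precursors cut into a heavy and a light chain; Map1b is known from growing axons and Map1a from mature neurons. Neurofilaments are polymers of the light, medium and heavy chains (Nefl, Nefm and Nefh) with alpha-internexin (Ina) as a further subunit in the central nervous system, and they widen axons.

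The 35 samples of the series gave 34 RNA libraries with values, 28 of mouse (C57BL/6) and 6 of rat (Sprague Dawley), with no allele or genotype named in the labels. Brain, heart, liver, lung and testis had 3 rRNA-depleted libraries each, 1 from mice of 14 weeks and 2 from mice of 20 weeks, and 1 further 14-week brain library was made with oligo-dT beads. Hippocampus was sampled at embryonic day 18 (E18) and postnatal days 1, 10 and 30 (P1, P10, P30), with 2 libraries at each age. Mouse hippocampus of 4 weeks gave 1 library of synaptosomes, a fraction of pinched-off nerve endings, and 1 of its homogenate. The CA1 field of 4-week mice and rats was cut from 500 µm slices into neuropil, the layer of dendrites and axons, and somata, the layer of cell bodies, with 1 library each. Rat hippocampal neurons kept 28 days in vitro received bicuculline, which blocks GABA-A receptors, at 40 µM for 12 h, or water as control, with 2 libraries each. The labels do not say whether replicate libraries came from separate animals or cultures, so each p-value measures the spread between libraries, which may be technical.

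Gene levels are TPM (a gene's share of all transcripts, corrected for transcript length, so levels of different genes can be set side by side); a log2 difference is between mean log2(TPM + 1) values and understates changes of low genes. The depth behind TPM is unknown. Between 11728 and 15605 genes reached 1 TPM in the mouse libraries and between 13007 and 13971 in rat. The neuronal markers Rbfox3, Snap25, Syt1, Stmn2, Camk2a and Syn1 summed to between 2832 and 3451 TPM in brain and to at most 56.1 TPM in the other tissues. Tubb3, a neuronal tubulin on that list, was listed at 0 in all 28 mouse libraries, and Hdac6 in all 6 rat libraries, so a listed 0 need not mean that a gene was silent. The 4 testis markers Prm1, Prm2, Tnp1 and Acrv1 summed to between 4.89 and 30.6 TPM in the 20-week libraries of brain, heart, liver and lung, against at most 0.638 TPM in their 14-week rRNA-depleted libraries.

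Brain was first set against heart, liver, lung and testis, to ask in which tissues these genes are expressed. All 9 genes were higher in brain than in the mean of the other 4 tissues, in a comparison in which 45.4% of 18966 genes were called higher, and the brain values lay above all 12 other libraries for each of the 9, against 20.0% of genes whose groups did not overlap in either direction. The 4 filament genes were nearly confined to brain in level, with no library of another tissue above 1.81 TPM. Nefl, Nefm and Ina passed the filter for testing through brain alone, so their calls and lack of overlap are no added support. Map4, Mapt and Map2 were also well detected in at least 1 other tissue. Of the genes called, 61.9% were higher in brain (median of all genes 0.34), or 33.0% with libraries scaled to equal medians (median -0.48), and all 9 members stayed higher under that scaling. In these bulk samples, fewer cells of a type and less RNA per cell cannot be told apart.

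Nefl, the light chain on which the filament is built, had 444, 390.0 and 492 TPM in brain (20 weeks, 20 weeks and 14 weeks), against between 0 and 0.626 TPM in the other 12 libraries. Nefm, the medium chain, had 91.5, 82.1 and 73.6 TPM in brain and at most 0.310 TPM elsewhere, and was listed at 0 in 3 of the 12. Nefh, the heavy chain, had 97.1, 96.0 and 144 TPM in brain, and its highest values elsewhere were 1.17, 1.81 and 1.13 TPM in testis. Ina had 46.2, 58.6 and 116 TPM in brain and at most 0.154 TPM elsewhere, and was listed at 0 in 4 of the 12 other libraries. The 14-week brain library thus held the highest Nefl, Nefh and Ina and the lowest Nefm of the 3 brain libraries. The differences from the mean of the 4 tissues were 8.58 for Nefl (SE 0.15, limma adjusted p = 1.47e-14), 6.22 for Nefm (SE 0.11, adjusted p = 2.25e-14), 6.32 for Nefh (SE 0.14, adjusted p = 1.09e-13) and 6.03 for Ina (SE 0.19, adjusted p = 2.94e-12) on the log2 scale. Of these tissues Nefl, Nefm and Ina reached 1 TPM only in brain, so they passed the filter for testing through brain alone. Their calls were thus largely fixed in advance and add no support beyond the levels. Within the 3 rRNA-depleted brain libraries Nefl made up 68.7% to 70.2% of the TPM of the 3 neurofilament chains. In the brain library made with oligo-dT beads it made up 52.1%, and Nefm 37.3%.

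**Figure D1:**
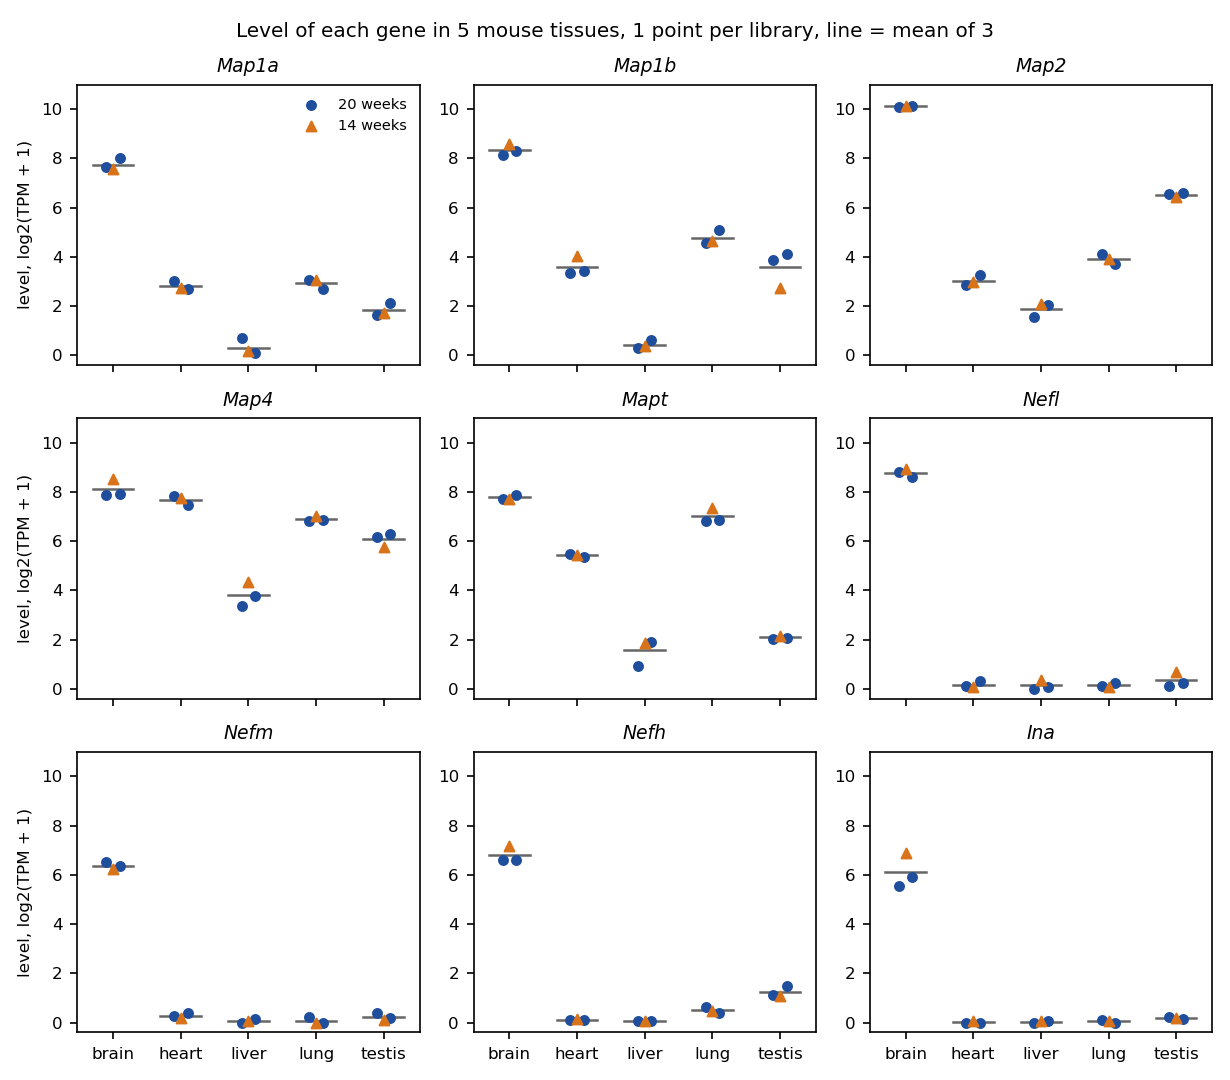
Level of each of the 9 genes as log2(TPM + 1) in brain, heart, liver, lung and testis of mice; each point is a library (circles 20 weeks, triangles 14 weeks) and the line is the mean of 3. The filament genes stand at or near 0 outside brain, whereas Map4 is high in heart, Mapt in lung and heart, and Map2 in testis.

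Map2 was the highest of the 9 in brain, with 1098, 1109.9 and 1106 TPM (1105 ± 6.18, SD, n = 3), and 70th of all genes by level in 20-week brain replicate 1. Testis held 92.3, 96.3 and 86.0 TPM of it, lung 12.1 to 16.2, heart 6.20 to 8.67 and liver 1.99 to 3.22. Testis was therefore the second tissue for Map2, at a level that no library of heart, liver or lung reached. Map1b had 281, 312 and 379 TPM in brain, with lung next at 22.6 to 32.8 TPM. Map1a had 200.2, 256 and 189 TPM in brain, with lung at 5.40 to 7.41 and heart at 5.54 to 7.02 TPM, ranges that overlap. Against the mean of the 4 tissues, Map2 differed by 6.27 (SE 0.13, limma adjusted p = 6.72e-14), Map1a by 5.77 (SE 0.17, adjusted p = 1.69e-12) and Map1b by 5.24 (SE 0.25, adjusted p = 2.33e-10) on the log2 scale.

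Map4, the member known from many cell types, was the least brain-restricted of the 9. It had 234, 243 and 363 TPM in brain, against 226, 178 and 217 TPM in heart, 111 to 130 TPM in lung, 52.8 to 77.7 TPM in testis and 9.31 to 19.5 TPM in liver. The brain and heart ranges lie side by side without overlap. Its difference from heart was 0.41 on the log2 scale (SE 0.25, limma adjusted p = 0.168) and did not pass the test, while 43.3% of genes were called higher in brain than in heart. With libraries scaled to equal medians this difference became -0.47 (adjusted p = 0.0455), so its direction depends on the scaling. From lung (1.21, SE 0.25, adjusted p = 6.93e-04), testis (2.03, SE 0.25, adjusted p = 3.34e-06) and liver (4.27, SE 0.25, adjusted p = 1.38e-09) Map4 differed in the same direction.

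Mapt had 211, 235 and 209 TPM in brain, 113, 117 and 162 TPM in lung and 43.3, 40.6 and 42.5 TPM in heart, against 3.09 to 3.50 TPM in testis and 0.906 to 2.78 TPM in liver. Lung was thus nearest to brain, and its 14-week library was nearest of all. The difference of brain from lung was 0.76 on the log2 scale (SE 0.23, limma adjusted p = 0.0113), with 28.6% of genes called higher; it was not called with a pseudocount of 0.1 TPM (adjusted p = 0.0520). From heart Mapt differed by 2.35 (SE 0.23, adjusted p = 7.19e-07), and from liver and testis by 6.21 and 5.68. Against heart 8 of 9 members were called higher, and against liver, lung and testis 9 of 9, with 59.3% of genes called higher against liver and 47.5% against testis. Each of these counts includes Nefl, Nefm and Ina, which passed the filter for testing through brain alone.

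The other genes of the microtubule and filament system were given as 7 lists. In brain against the mean of the other tissues, all 12 further microtubule-binding proteins were higher, led by Map7d2 (132 ± 22.7 TPM in brain, n = 3, and 0.995 ± 0.979 in the others, n = 12) and Dclk1 (345 ± 39.7 TPM in brain and 3.27 ± 2.57 in the others). The 4 stathmins, small proteins that bind free tubulin, were all higher, with Stmn3 and Stmn2 at 1115 ± 668 and 265 ± 107 TPM in brain. Of 12 tubulins tested 7 were higher, led by Tubb2b and Tubb4a, and 3 lower, led by Tuba1c and Tubb1, the tubulin of blood platelets. Kinases that act on tau and related proteins were higher in 13 of 14 (Cdk5r1, the activator of Cdk5, by 6.22 and Mark1 by 3.78 on the log2 scale), and end-binding proteins in 9 of 10 (Clasp2 by 3.30, Camsap2 by 2.17). Of 15 severing and tubulin-modifying enzymes 10 were higher (Ttll7 by 3.73, Ttl by 2.47) and 1, Svbp, lower by -0.63. The other intermediate filaments divided, with 4 higher (Gfap of astrocytes by 6.67, Prph by 2.14) and 3 lower (Krt8 of epithelia by -3.52, Des of muscle by -2.84). Median log2 differences were 6.03 for the 9 members and 3.96, 6.26, 2.35, 2.51, 1.38, 1.27 and -0.12 for these lists in the order given, beside 0.34 over all genes tested.

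The hippocampal series followed the same genes from E18 to P30. Between E18 and P30, 5 of the 9 rose (Map1a, Nefh, Nefl, Nefm and Map4), 2 fell (Mapt and Ina), and Map1b and Map2 were not called; 29.5% of 15444 genes were called higher at P30 and 26.8% lower, so 7 of 9 stand beside 56.3% of all genes. The steepest change of the neurofilament chains came between P1 and P10, Map1a went on rising to P30, and Mapt fell in both late steps. P30 and E18 did not overlap for those 7 genes, as for 79.6% of all genes.

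Map1a had 11.0 and 12.8 TPM at E18, 17.3 and 10.4 at P1, 67.2 and 64.6 at P10, and 223 and 240.2 at P30. Its P10 and P30 libraries stood clear of each other and of both earlier ages. P30 exceeded E18 by 4.17 on the log2 scale (SE 0.21, limma adjusted p = 5.37e-07), P10 exceeded P1 by 2.21 (SE 0.21, adjusted p = 1.15e-04) and P30 exceeded P10 by 1.797 (SE 0.21, adjusted p = 4.50e-04). Map1b, its partner in the family, had 274 and 459.6 TPM at E18, 238 and 319 at P1, 274 and 403 at P10, and 299 and 372 at P30. The Map1b libraries of all 4 ages overlapped, and P30 differed from E18 by -0.09 (SE 0.27, adjusted p = 0.804); the sign turned to 0.28 without E18 replicate 2 and to 0.07 without P30 replicate 1. Of the summed Map1a and Map1b TPM, Map1a was 3.87% and 2.71% at E18, 6.76% and 3.15% at P1, 19.7% and 13.8% at P10, and 42.7% and 39.2% at P30.

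Nefl had 32.4 and 76.9 TPM at E18, 57.2 and 62.9 at P1, 493 and 503 at P10, and 447 and 409.7 at P30. Its highest values were those of P10; P30 lay below them by -0.22, which did not pass the test (SE 0.31, limma adjusted p = 0.624). Nefm had 11.1 and 22.3 TPM at E18, 14.7 and 15.8 at P1, 44.3 and 71.8 at P10, and 51.4 and 58.2 at P30. Nefh, which joins the filament late in development in rodents, had 1.11 and 1.65 TPM at E18, 1.71 and 1.40 at P1, 18.8 and 23.0 at P10, and 29.1 and 31.5 at P30. From P1 to P10 all 3 chains rose, with no overlap between the ages, as for 68.8% of genes: Nefh by 3.09 (SE 0.20, adjusted p = 2.23e-05), Nefl by 3.03 (SE 0.31, adjusted p = 1.58e-04) and Nefm by 1.82 (SE 0.31, adjusted p = 0.00214). From P10 to P30 the Nefh difference was 0.52 (SE 0.20, adjusted p = 0.0764), which passed the threshold only with a pseudocount of 5 TPM (adjusted p = 0.0285). Over the whole span P30 exceeded E18 by 3.72 for Nefh (adjusted p = 6.66e-07), 3.07 for Nefl (adjusted p = 2.97e-05) and 1.73 for Nefm (adjusted p = 0.00104).

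Ina, the internexin known from early neurons, had 58.5 and 97.2 TPM at E18, 42.3 and 50.6 at P1, 35.4 and 35.1 at P10, and 46.2 and 52.8 at P30. Both P30 libraries were below both E18 libraries, with 52.8 TPM the nearer at P30 and 58.5 TPM the nearer at E18. P30 differed from E18 by -0.60 (SE 0.22, limma adjusted p = 0.0428). The call was lost without E18 replicate 2 (-0.24, adjusted p = 0.330), P30 replicate 1 (adjusted p = 0.180), P30 replicate 2 (0.0802), P10 replicate 1 (0.0593) or P10 replicate 2 (0.0587), and with no filter on low values (0.0819). Of the summed TPM of the 4 filament genes, Ina was 56.7% and 49.1% at E18, 36.5% and 38.7% at P1, 5.98% and 5.54% at P10, and 8.06% and 9.56% at P30. The summed TPM of the 4 was 574 and 552 at P30, against 103 and 198 at E18.

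Mapt had 593 and 894 TPM at E18, 667 and 611 at P1, 358 and 335 at P10, and 171 and 191 at P30. It was the second highest of the 9 at E18, below Map2, and below Map1a, Map1b, Map2, Map4 and Nefl at P30. P30 was lower than E18 by -2.00 (SE 0.19, limma adjusted p = 1.84e-05), P10 lower than P1 by -0.88 (SE 0.19, adjusted p = 0.00644) and P30 lower than P10 by -0.93 (SE 0.19, adjusted p = 0.00594). Map4 had 97.8 and 134 TPM at E18, 172 and 164 at P1, 299 and 286 at P10, and 358 and 329 at P30. P30 exceeded E18 by 1.58 (SE 0.16, adjusted p = 3.16e-05) and P10 exceeded P1 by 0.80 (SE 0.16, adjusted p = 0.00510). Map2 had 780.5 and 1206 TPM at E18, 784 and 1158 at P1, 1044 and 1251 at P10, and 1055 and 1163 at P30. It overlapped between every pair of ages, and P30 differed from E18 by 0.19 (SE 0.24, adjusted p = 0.519), or by -0.12 without E18 replicate 1.

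**Figure D2:**
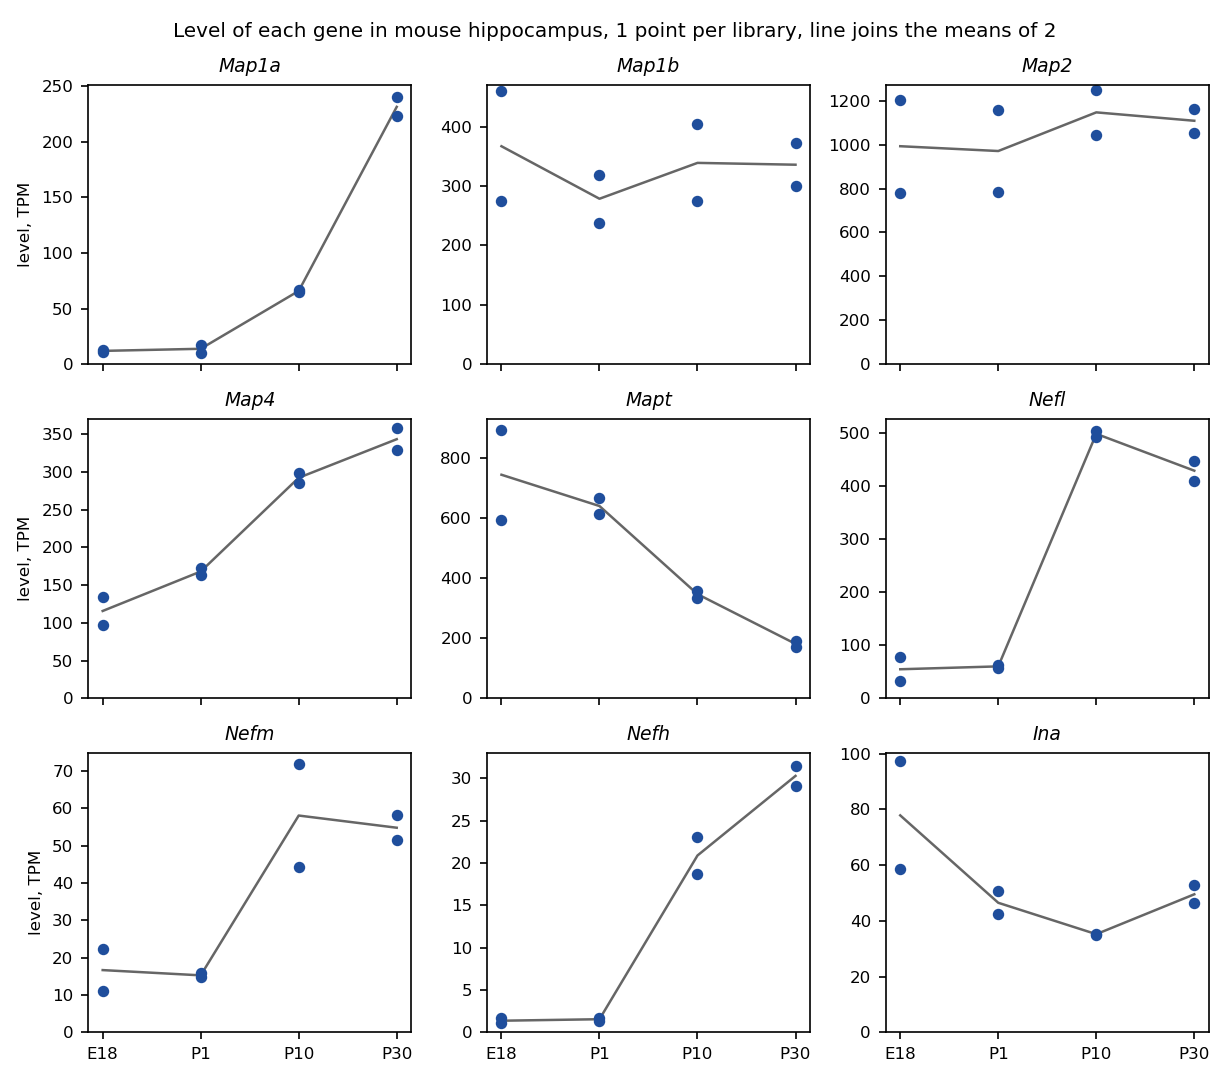
Level in TPM of each gene in mouse hippocampus at E18, P1, P10 and P30; each point is a library, the line joins the means of 2, and each panel has its own scale from 0. Nefl, Nefm and Nefh step up between P1 and P10, Map1a climbs to P30, Mapt declines, and Map1b and Map2 stay within the spread of their replicates.

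By step, none of the 9 was called between E18 and P1 (limma adjusted p from 0.133 to 0.978), where 1.73% of genes were. Map4 and Ina were nearest to the threshold in this step (limma adjusted p = 0.133 and 0.173). Between P1 and P10, 5 were called higher and 1 lower, beside 17.2% and 18.0% of genes. Between P10 and P30, Map1a was called higher and Mapt lower, beside 17.0% and 12.5%; of the genes called in this last step 57.7% were higher, or 36.6% with libraries scaled to equal medians. These steps share the libraries of the age between them. Cell-type markers moved over the same span. The 6 oligodendrocyte markers, all called higher at P30, summed to between 9035 and 10204 TPM at P30 and to between 39.8 and 40.1 TPM at E18, the 6 astrocyte markers to between 1809 and 1851 TPM at P30 and between 367 and 442 TPM at E18, and the 6 detected neuronal markers (5 higher, 1 lower) to between 4150 and 4195 TPM at P30 and between 1388 and 1488 TPM at E18. The 6 progenitor markers, 5 of them called lower, summed to between 50.5 and 83.9 TPM at P30 and to between 380 and 388 TPM at E18. Apart from Tubb3 no defining marker of these 4 lists was missing at both ages, and the part of these cell types in the members' changes was not tested.

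Among the other lists, further microtubule-binding proteins gave 7 higher and 2 lower of 12 at P30 against E18. Tppp, known from oligodendrocytes, had 485 ± 89.1 TPM at P30 and 22.5 ± 2.36 at E18 (SD, n = 2 each), Map7 had 36.6 ± 0.896 TPM at P30 and 1.62 ± 0.114 at E18, and doublecortin (Dcx), known from migrating neurons, had 9.65 ± 0.726 TPM at P30 and 276 ± 64.1 at E18. Dclk2 was lower by -0.70. Of 4 stathmins 2 were lower, Stmn1 (492 ± 0.826 TPM at P30 and 3692 ± 452 at E18) and Stmn2 (359 ± 7.31 TPM at P30 and 1076 ± 39.2 at E18), and none higher. Tubulins gave 4 higher and 5 lower of 11: Tuba4a rose by 5.07 and Tuba8 by 2.52, while Tubb2b fell by 3.94 and Tuba1a by 3.03 on the log2 scale. Of the 14 kinases 6 were higher (Cdk5r2 by 2.04, Brsk1 by 1.03) and 3 lower (Cdk5r1 by -0.93, Mark3 by -0.60). End-binding proteins had Mapre3 higher by 1.88 and 3 of 10 lower, led by Mapre1 (-1.37) and Camsap3 (-0.85). Of 14 severing and modifying enzymes 4 were higher (Ttll7 by 2.83, Ttll11 by 2.89) and 8 lower (Vash2 by -4.01 and its partner Svbp by -2.81). Of 11 other intermediate filaments 4 were higher (Gfap by 2.61, Synm by 1.52) and 4 lower (Lmnb1 by -3.37 and Nes, known from progenitors, by -3.84). The median difference was 1.58 for the 9 members, beside 0.01 over all genes tested and 0.76, -1.02, -0.28, 0.49, -0.16, -0.70 and 0.37 for the lists in this order.

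Likeness of pattern was measured as Pearson's r of log2(TPM + 1). Over the 8 hippocampal libraries, which share 4 ages, Nefl followed Nefm (r = 0.98) and Nefh (0.97), and Mapt ran opposite to Map1a (-0.96) and Nefh (-0.92). The highest r of Map1b with another member was that with Map2 (0.82). Among the 10989 genes with at least 10 TPM in 2 or more of these libraries, the nearest to Map1a were Olfm1, B3galt5 and Slc25a23 (r from 0.995 to 0.996), to Nefh Thy1, Htra1 and Slc30a3 (0.997 to 0.999), to Nefl Plekhb2, Snap91 and Tln2 (0.993 to 0.996) and to Nefm Tln2, Atp2b4 and Chrm4 (0.986 to 0.992). Nearest to Mapt were Neo1, Igsf3 and Mapk6 (0.991 to 0.996), to Map2 Ythdf1, Camsap2 and Spna2 (0.966 to 0.975) and to Ina Men1, Ddit4 and Ptk2 (0.943 to 0.955). Over all 27 rRNA-depleted mouse libraries, which mostly separate brain from other tissues, the nearest genes of 15701 were Scg2, Sult4a1 and Sv2b for Nefl, Rit2, 2810011L19Rik and Spock3 for Nefm, Gabrd, Nrsn2 and Ankrd34b for Nefh, and 9430031J16Rik, Diras1 and Fam123c for Ina. For the microtubule-binding members given here they were Rgs7bp, Slc24a2 and Abhd12 (Map1a), Scrn1, Atp6v0e2 and Abi2 (Map1b), Smarca1, Enox1 and Dlg2 (Map2), and Tcf4, Csnk1e and Vopp1 (Mapt), with r between 0.976 (Map1a with Abhd12) and 0.995 (Nefl with Scg2) for the pairs named.

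Synaptosomes were set against the homogenate to ask which transcripts the nerve-ending fraction retains. With 1 library each there is no replicate check and no test, and a ratio past 2-fold is used as a rule of size. Only Nefm and Ina passed it, both lower in synaptosomes, beside 14.0% of 14854 genes that were more than 2-fold lower. Nefm had 19.1 TPM in synaptosomes and 54.5 TPM in homogenate (log2 ratio -1.46, percentile 3.80 among genes). Ina had 36.1 TPM in synaptosomes and 82.2 TPM in homogenate (-1.17, percentile 9.28). Relative to the median of all genes in this pair, which was -0.29, Nefm stayed past 2-fold (-1.17) and Ina did not (-0.87). Nefl, with 249 TPM in synaptosomes and 406 TPM in homogenate (-0.70), and Map1b, with 254 TPM in synaptosomes and 407 TPM in homogenate (-0.68), were lower within 2-fold. Mapt (129 TPM in synaptosomes, 183 in homogenate, -0.50) and Nefh (24.8 TPM in synaptosomes, 35.2 in homogenate, -0.49) stood nearer to that median. Map2 (1153 TPM in synaptosomes, 1048 in homogenate, 0.14) and Map1a (282 TPM in synaptosomes, 260.4 in homogenate, 0.11) were the members with a ratio above 0, and Map4 (341 TPM in synaptosomes, 401 in homogenate, -0.23) lay just above the median of all genes.

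Markers of other cell types differed between these fractions. The 6 astrocyte markers summed to 8417 TPM in synaptosomes and 1504 TPM in homogenate, the 6 oligodendrocyte markers to 10550.5 TPM in synaptosomes and 5780 TPM in homogenate, the 5 microglial markers to 699 TPM in synaptosomes and 177 TPM in homogenate, and the 6 detected neuronal markers to 2867 TPM in synaptosomes and 4044 TPM in homogenate. The 5 interneuron markers summed to 429 TPM in synaptosomes and 1232 TPM in homogenate, and the 4 endothelial markers to 15.0 TPM in synaptosomes and 88.7 TPM in homogenate. The neuronal, interneuron and endothelial sums were thus lower in synaptosomes, and the astrocyte, oligodendrocyte and microglial sums higher. Apart from Tubb3 none of these markers was at 0 in either library, and their part in the members' ratios was not tested. All 4 stathmins were more than 2-fold lower (from Stmn4 at -1.19 to Stmn3 at -1.46), as were 4 of 11 tubulins (Tuba8 lowest at -1.61), with Tubb2b more than 2-fold higher at 1.38. The other lists each held at most 3 genes past 2-fold, with Map7d2 (-1.23), Mapre2 (-1.01), Ttll1 (-1.75) and Lmna (-1.18) their lowest genes, and Tppp3 (-0.02), Camsap3 (0.41), Svbp (0.46), Ttbk1 (1.07) and Gfap (2.196) their highest. Cdk5 was the lowest of the kinases at -0.72.

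CA1 neuropil was set against somata in mouse and in rat, again with 1 library each. No member passed 2-fold in either species, beside 9.19% of mouse and 9.81% of rat genes. Map2, whose mRNA is known from dendrites, was the member with the highest ratio in both: it had 1587 TPM in neuropil and 1163 in somata in mouse (log2 ratio 0.45, percentile 76.0), and 1129 TPM in neuropil and 808 in somata in rat (0.48, percentile 73.1). Map4 was the lowest in mouse, with 448 TPM in neuropil and 643 in somata (-0.52, percentile 7.95), and in rat it had 190.2 TPM in neuropil and 252 in somata (-0.40, percentile 14.1). Mapt had 126 TPM in neuropil and 114 in somata in mouse (0.14), and 183 TPM in neuropil and 154 in somata in rat (0.25). Map2 and Mapt were thus above 0 and Map4 below 0 in both species. Map1a had 233 TPM in neuropil and 193 in somata in mouse (0.27) and 208 TPM in neuropil and 210.0 in somata in rat (-0.02). Map1b had 184 TPM in neuropil and 211 in somata in mouse (-0.20) and 225 TPM in neuropil and 247 in somata in rat (-0.13).

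All 4 filament genes had lower values in neuropil than in somata in the rat pair. In the mouse pair Nefm and Ina were lower, while Nefl and Nefh were nearly equal. The median ratio of all genes was 0.001 in mouse and 0.086 in rat. Nefl had 455 TPM in neuropil and 465 in somata in mouse (-0.03), and 514 TPM in neuropil and 688 in somata in rat (-0.42). Nefm had 35.5 TPM in neuropil and 41.6 in somata in mouse (-0.22) and 40.6 TPM in neuropil and 55.5 in somata in rat (-0.44). Nefh had 22.2 TPM in neuropil and 22.8 in somata in mouse (-0.04) and 33.1 TPM in neuropil and 44.8 in somata in rat (-0.43). Ina had 29.6 TPM in neuropil and 35.8 in somata in mouse (-0.26) and 35.8 TPM in neuropil and 48.5 in somata in rat (-0.43). The rat ratios of the 4 genes thus all lie between -0.44 and -0.42. Nefl was 88.7% of the 3 chains in mouse neuropil and 87.8% in mouse somata, and 87.5% in rat neuropil and 87.3% in rat somata. Astrocyte markers summed to 3260 TPM in neuropil and 1277 in somata in mouse and to 6342 TPM in neuropil and 2920 in somata in rat. Oligodendrocyte markers summed to 4709 TPM in neuropil and 2902 in somata in mouse and to 9323 TPM in neuropil and 5102 in somata in rat. Neuronal markers summed to 3077 TPM in neuropil and 3182 in somata in mouse and to 2205 TPM in neuropil and 3235 in somata in rat, where the list holds Tubb3 and lacks Camk2a, which was not matched in the rat table. Their part in the members' ratios was not tested.

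**Figure D3:**
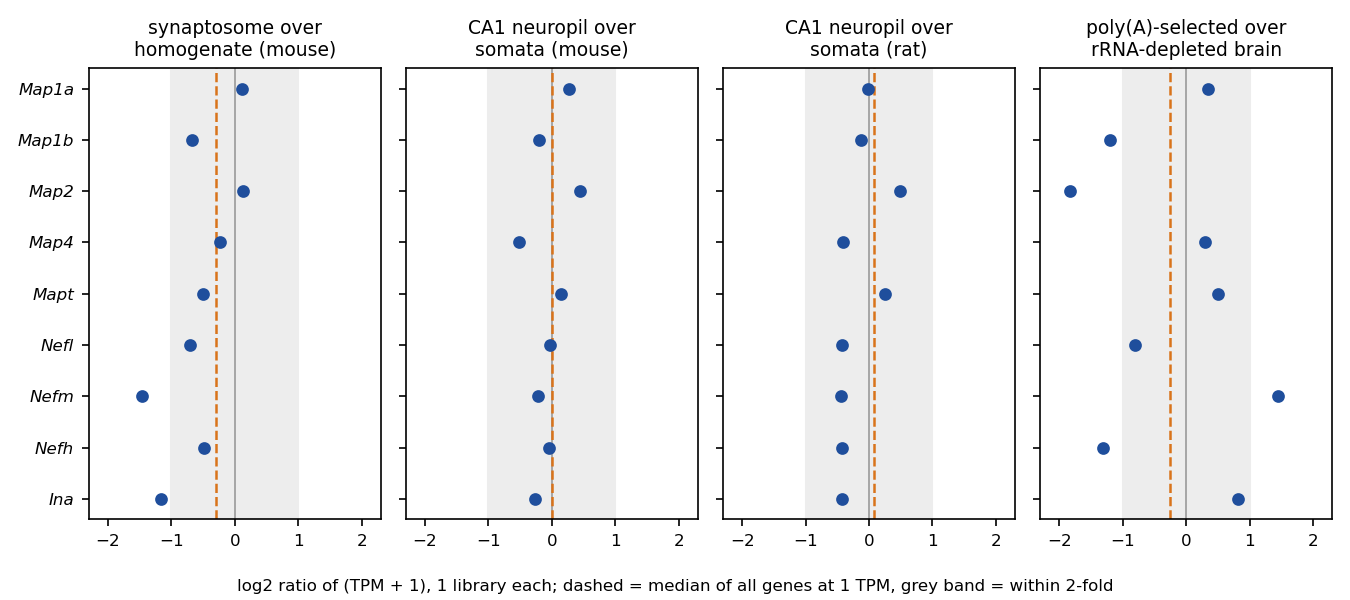
Log2 ratio of (TPM + 1) of each gene in 4 pairs of single libraries; the dashed line is the median ratio of all genes with at least 1 TPM and the grey band marks ratios within 2-fold. Nefm and Ina lie left of the band in synaptosomes, all 9 lie inside it in both CA1 pairs, and Nefm lies right and Map1b, Map2 and Nefh left of it in the poly(A)-selected brain.

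Of the other lists, 3 of 8 measured intermediate filaments were more than 2-fold higher in neuropil in each species, led by Vim (2.37 in mouse, 2.23 in rat), and none was more than 2-fold lower; Synm in mouse (-0.26) and Prph in rat (-0.41) were lowest. In rat neuropil Dcx (1.86), Tubb2b (1.59) and Brsk1 (1.03) also passed 2-fold, as the only such gene of its list each, and in mouse no gene of the other 6 lists did. There Tppp3 (0.57), Stmn1 (-0.19), Tubb2b (0.51), Brsk1 (0.95), Mapre1 (0.28) and Atat1 (0.67) had the highest ratio of their lists, and Map9 (-0.62), Stmn4 (-0.57), Tubb2a (-0.44), Cdk5r1 (-0.39), Camsap3 (-0.59) and Ttll1 (-0.53) the lowest. In rat the remaining highest were Stmn1 (0.53), Mapre1 (0.36) and Vash1 (0.98), and the lowest Map9 (-0.80), Stmn3 (-0.64), Tuba4a (-0.55), Cdk5 (-0.34), Mapre3 (-0.33) and Ttll7 (-0.66).

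Libraries of 14-week brain made in different ways also differed in the members' levels. There, the poly(A)-selected library held 310 TPM of Map2 against 1106 TPM in the rRNA-depleted library (log2 ratio -1.83, percentile 2.78 among 15595 genes). Nefh had 57.4 TPM with poly(A) selection and 144 with rRNA depletion (-1.31), and Map1b 164 TPM with poly(A) selection and 379 with rRNA depletion (-1.20). Nefm went the other way, with 202 TPM with poly(A) selection and 73.6 with rRNA depletion (1.44, percentile 95.7). These 4 of the 9 passed 2-fold, beside 24.9% of genes. Relative to the median of all genes in this pair (-0.25), Map1b no longer passed it (-0.95) and Ina did (1.07). Within 2-fold, Ina had 205 TPM with poly(A) selection and 116 with rRNA depletion (0.82), and Mapt 295 TPM with poly(A) selection and 209 with rRNA depletion (0.50). Map1a had 242 TPM with poly(A) selection and 189 with rRNA depletion (0.35), Map4 445 TPM with poly(A) selection and 363 with rRNA depletion (0.29) and Nefl 282 TPM with poly(A) selection and 492 with rRNA depletion (-0.80). The order of the members differed between these libraries: Map4 had the highest TPM of the 9 in the poly(A)-selected library and Map2 in the rRNA-depleted library. The 2 libraries are also separate samples, and the selection and the sample cannot be told apart. The lists' extremes in this pair were Cdk5r2 (3.28), Tubb4a (2.33), Atat1 (1.89), Mapre3 (1.74), Stmn2 (1.66), Map1s (1.02) and Lmnb1 (0.67) at the high end, and Ttbk2 (-2.205), Camsap2 (-1.81), Ttll7 (-1.53), Tppp (-1.05), Tuba1a (-0.93), Stmn3 (-0.69) and Lmna (-0.47) at the low end.

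Bicuculline was given to rat cultures to raise their activity. Of the 9 genes, Nefl alone was called, and higher, beside 2.06% of 13341 genes called higher and 0.510% lower. It had 1537 and 1203 TPM with bicuculline, against 638 and 641 TPM with water, so both treated libraries were above both controls. The difference was 1.09 on the log2 scale (SE 0.15, limma adjusted p = 0.0358). The call was lost without bicuculline replicate 1 (0.91, adjusted p = 0.228), bicuculline replicate 2 (1.26, adjusted p = 0.0992) or water replicate 1 (1.08, adjusted p = 0.0525), and with no filter on low values (adjusted p = 0.105). Its share of the 3 chains was 89.2% and 88.6% with bicuculline, against 77.2% and 81.8% with water.

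The other filament genes were not called. Nefm had 140 and 80.7 TPM with bicuculline, against 122 and 67.1 with water (0.23, SE 0.37, limma adjusted p = 0.807). Nefh had 46.3 and 74.0 TPM with bicuculline, against 65.6 and 75.2 with water (-0.26, SE 0.24, adjusted p = 0.624). Ina had 34.9 and 20.1 TPM with bicuculline, against 29.6 and 17.2 with water (0.22, SE 0.36, adjusted p = 0.801). In each of these 3 genes the treated and control libraries overlapped. Map1b had 109.6 and 136 TPM with bicuculline, against 234 and 188 with water (-0.77, SE 0.18, adjusted p = 0.0953, or 0.0404 without water replicate 2). Map1a had 33.6 and 46.0 TPM with bicuculline, against 75.7 and 58.6 with water (-0.75, SE 0.21, adjusted p = 0.149). For Map1a and Map1b both treated libraries were below both controls, without passing the threshold. Mapt had 75.8 and 118 TPM with bicuculline, against 122 and 120 with water, again without overlap (-0.35, SE 0.22, adjusted p = 0.455). With Nefl these make 4 of 9 members whose groups did not overlap, beside 51.5% of genes. Map2 (640.2 and 755 TPM with bicuculline, 750 and 602 with water) and Map4 (95.2 and 130 TPM with bicuculline, 101 and 109 with water) overlapped.

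**Figure D4:**
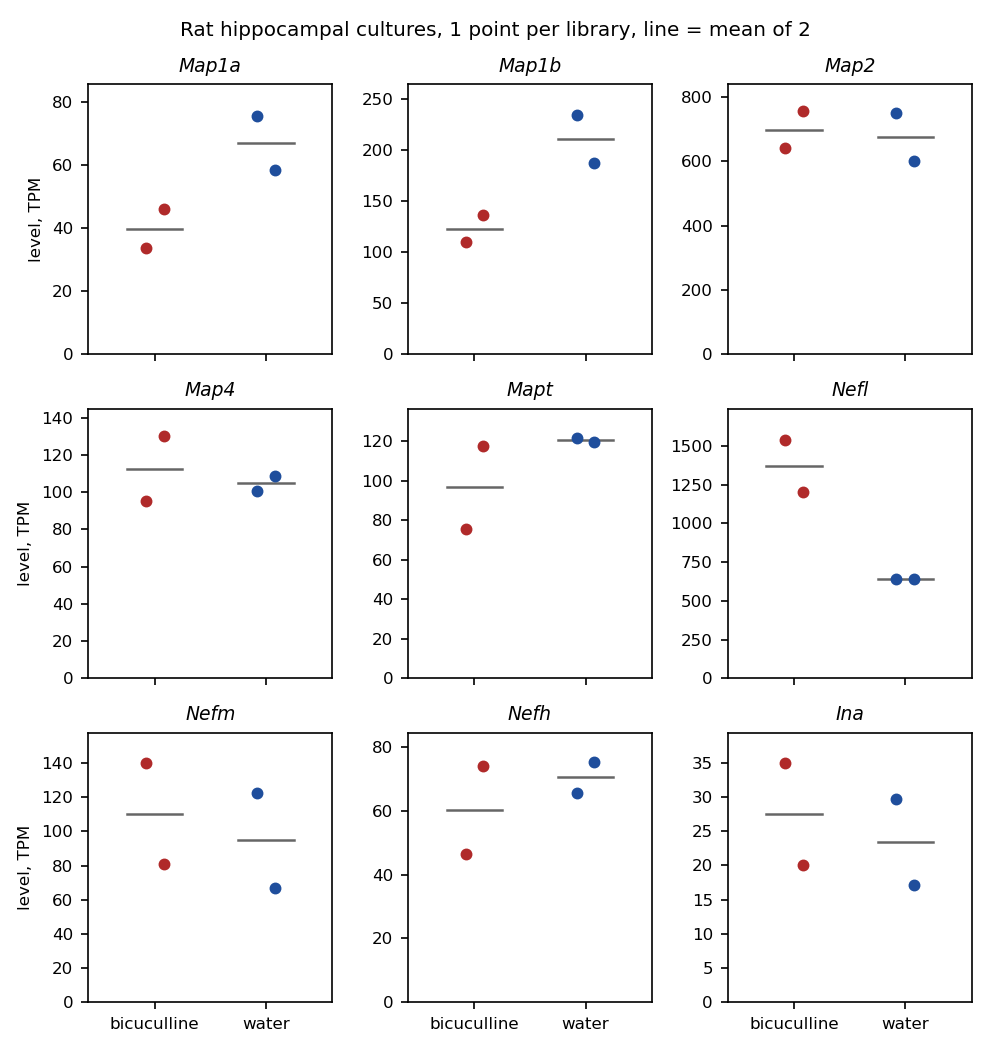
Level in TPM of each gene in rat hippocampal cultures given bicuculline (left, red) or water (right, blue); each point is a library, the line is the mean of 2, and each panel has its own scale from 0. Nefl stands at 1203 and 1537 TPM with bicuculline, above 638 and 641 TPM with water, and Map1a and Map1b lie lower with bicuculline.

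Among the other lists, Dclk1, a kinase of the doublecortin family that binds microtubules, was the only gene called in this comparison. It had 321 ± 20.4 TPM with bicuculline and 140 ± 13.1 TPM with water (SD, n = 2 each; 1.19, SE 0.13, limma adjusted p = 0.0183). None of 4 stathmins, 11 tubulins, 14 kinases, 9 end-binding proteins, 12 severing and modifying enzymes and 7 other intermediate filaments was called. Median differences were 0.05 for the members and -0.22, -0.05, -0.28, 0.00, -0.16, 0.10 and -0.11 for the lists in the order used above, beside -0.07 over all genes. Neuronal markers summed to between 2443 and 2609 TPM with bicuculline and between 2521 and 2859 TPM with water, and astrocyte markers to between 6839 and 7433 TPM with bicuculline and between 7072 and 10344 TPM with water. The 5 interneuron markers summed to between 1520 and 1943 TPM with bicuculline and between 1275 and 1430 TPM with water. None of these 3 lists held a called gene, and their part in the Nefl difference was not tested.

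CircRNAs of these hosts were few and shallow. Their level is the number of reads over the back-splice junction, scaled to depth (RPM), where 1 read was worth between 0.448 and 2.14 RPM in the mouse libraries. In mouse, Map4 was host to 12, Map2 to 8, Mapt to 4 and Map1a to 1, and Map1b, Nefl, Nefm, Nefh and Ina to none. In rat, Map2 was host to 8, Map4 to 5, Mapt to 2, and Map1b and Nefl to 1 each. The filament genes thus appeared once, as a 125-base piece of rat Nefl with 2 reads, and Map1b as a 102-base piece with 1 read. The poly(A)-selected library held no read of any of the 25 mouse circRNAs. It held only 127 circRNA reads in all, against 21432 in the rRNA-depleted 14-week brain library, too few for this absence to be informative.

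The sequences printed are those of the most read circle and of the single-exon circles short enough to show, so that what is closed can be seen. Exons were matched from the deposited mm9 blocks to GENCODE M21 transcripts (GRCm38) by their run of lengths, each with a single place of match, and the sequences are those of GRCm38, 5′ to 3′ on the plus strand. The most read was a Map4 circle of a 123-base and a 114-base exon, 237 bases in all, with 40 reads in 12 libraries (mm9 chr9:109928605-109930296; GRCm38 chr9:110026101-110027792), coding throughout in both matching transcripts. In the line below the 12 bases at each end, which the back-splice joins, are in capitals.
Map4 123 + 114 circle: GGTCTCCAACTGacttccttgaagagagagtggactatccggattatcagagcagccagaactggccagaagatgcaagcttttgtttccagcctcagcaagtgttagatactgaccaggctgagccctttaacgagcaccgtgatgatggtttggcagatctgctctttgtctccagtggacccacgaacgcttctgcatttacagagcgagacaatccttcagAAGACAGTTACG

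A Map4 circle of a single 242-base exon (GRCm38 chr9:109978850-109979091) had 9 reads in 5 mouse libraries, and the same 242-base exon opened a 242 + 69 circle with 11 reads in 6. A Map2 circle of a single 285-base exon (GRCm38 chr1:66380489-66380773) had 3 reads in 2 libraries, and this exon was also the last of 2 longer Map2 circles with 10 and 13 reads. Both exons hold the start codon, in 3 of 4 Map4 transcripts and 8 of 9 Map2 transcripts that contain the exon. Their coding parts follow, with the start codon and the last 12 bases of the exon in capitals.
Map4 242-base exon, coding part: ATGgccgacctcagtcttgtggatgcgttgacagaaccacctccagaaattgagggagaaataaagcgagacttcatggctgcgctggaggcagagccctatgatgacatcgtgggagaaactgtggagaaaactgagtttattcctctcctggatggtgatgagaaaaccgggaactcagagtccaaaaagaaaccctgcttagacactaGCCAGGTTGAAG
Map2 285-base exon, coding part: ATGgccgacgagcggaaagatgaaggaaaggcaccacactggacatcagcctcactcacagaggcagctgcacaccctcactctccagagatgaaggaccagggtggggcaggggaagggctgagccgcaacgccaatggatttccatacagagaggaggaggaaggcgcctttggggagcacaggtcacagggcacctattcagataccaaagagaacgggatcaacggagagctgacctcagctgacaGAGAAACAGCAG

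A Mapt circle of a single 266-base exon (GRCm38 chr11:104310269-104310534) had 2 reads in 2 libraries, and a 266-base exon also closed both rat Mapt circles. It codes throughout in all 5 transcripts that contain it, and the 12 bases at each end are in capitals.
Mapt 266-base exon: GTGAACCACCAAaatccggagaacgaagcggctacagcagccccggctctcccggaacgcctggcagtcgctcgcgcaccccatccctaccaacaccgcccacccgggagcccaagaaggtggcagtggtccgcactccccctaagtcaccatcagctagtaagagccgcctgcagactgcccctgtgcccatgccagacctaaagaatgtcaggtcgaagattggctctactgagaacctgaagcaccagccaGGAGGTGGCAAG

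Circles with the same run of exon lengths occurred in both species in 3 cases, from the hosts Map2 and Map4: the Map2 285-base exon (3 reads in mouse, 2 in rat), the Map4 242-base exon (9 in mouse, 1 in rat) and Map4 242 + 69 (11 in mouse, 4 in rat). A Map4 circle of 5 exons, 123 + 114 + 135 + 1134 + 114 in mouse with 33 reads in 12 libraries, had a rat counterpart with 1137 in place of 1134 bases and 5 reads in 3 libraries. The rat circle with most reads was Map2 74 + 285, with 24 reads in all 6 rat libraries: 7 in neuropil, 7 in somata, 3 and 3 with bicuculline and 2 and 2 with water. The 285-base exon thus took part in the leading rat circle and in several mouse circles. In mouse the leading circle of Map2 was 114 + 78 (15 reads in 9 libraries), that of Mapt 87 + 87 + 459 + 759 + 50 (4 reads in homogenate and 1 in synaptosomes), and the circle of Map1a 83 + 141 (8 reads in 4 libraries, 4 of them in homogenate).

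By tissue, 12 reads of these hosts were among 52073 circRNA reads of the 3 brain libraries (6 of Map2, 5 of Map4 and 1 of Mapt). Testis held 30 among 34945, all of Map4, and heart held 4 among 9271, all of Map4. No read of these hosts was found in liver or lung, where a count of 0 allows up to 3 reads as a one-sided limit, or 3.69 as the upper end of the exact Poisson 95% interval. Map4 reads per 1000 circRNA reads were 0.0960 in brain (exact Poisson 95% interval 0.0312 to 0.224), 0.858 in testis (0.579 to 1.23) and 0.431 in heart (0.118 to 1.105), while Map4 mRNA had a mean of 280.1 TPM in brain and 67.3 TPM in testis. Of the 30 testis reads 24 came from the 14-week library, the most deeply read of the 3. Scaled to depth, Map4 circRNAs had 17.2 RPM there, against 1.13 and 5.76 RPM in the 20-week libraries. All circRNAs together had 16727 RPM there, against 6349 and 6973 RPM. Without the 14-week library the testis rate was 0.515 (0.189 to 1.12), an interval that overlaps that of brain. These intervals cover counting error only. Of the 3 member circRNAs tested, all of Map4, none was called for brain against the mean of the other tissues (limma adjusted p from 0.0850 to 0.609, edgeR on whole reads adjusted p at least 0.111), beside 50.5% of 5594 circRNAs. The Map4 242 + 69 circle (-0.58) was called without 20-week heart replicate 2 (adjusted p = 0.0280) or 20-week testis replicate 1 (adjusted p = 0.0411).

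In the hippocampus 27, 21, 21 and 22 reads of these hosts were found at E18, P1, P10 and P30, among 38460, 40272, 36533 and 60834 circRNA reads. Per 1000 circRNA reads this was 0.702 at E18 (exact Poisson 95% interval 0.463 to 1.02), 0.521 at P1 (0.323 to 0.797), 0.575 at P10 (0.356 to 0.879) and 0.362 at P30 (0.227 to 0.548), and the intervals of all ages overlap. In RPM the means were 7.79 at E18, 6.37 at P1, 5.31 at P10 and 6.52 at P30. Of 12 member circRNAs tested at P30 against E18 none was called (limma adjusted p at least 0.184, edgeR adjusted p at least 0.541), beside 7.71% of 14200. The one nearest to the threshold was the Map4 circle of 237 bases, with 2 and 5 reads at P30 and 1 and 0 at E18 (log2 difference 1.64, SE 0.58, adjusted p = 0.184). The Map4 circle of 5 exons had 1 and 0 reads at P30 and 2 and 1 at E18, with 3 and 7 reads at P10 between them. Mapt circles had no read at P30 and 3 at E18, and the single Map1a circle had no read at P30 and 1 and 1 at E18, while the homogenate library held 4 reads of each. The Map1a circle was called without P1 replicate 1 (-1.01, limma adjusted p = 0.0222).

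In the single-library pairs, the Map4 circle of 237 bases had 9 reads in synaptosomes and 8 in homogenate, and 7 in mouse neuropil and 1 in somata. All hosts together gave 18 reads in synaptosomes and 21 in homogenate, or 0.414 per 1000 circRNA reads in synaptosomes (exact Poisson 95% interval 0.245 to 0.654) and 0.575 in homogenate (0.356 to 0.879). In mouse CA1, neuropil gave 12 reads, or 0.492 per 1000 (0.254 to 0.860), and somata 4, or 0.286 (0.0781 to 0.733). In rat CA1, neuropil gave 15 reads, or 0.607 per 1000 (0.340 to 1.00), and somata 11, or 0.687 (0.343 to 1.23). The intervals of the groups of each pair overlap. In RPM these hosts had 9.88 in synaptosomes and 9.41 in homogenate, and 15.7 in rat neuropil and 8.90 in rat somata. Both orders are the reverse of those per 1000 circRNA reads. In mouse CA1 the order was the same, with 13.0 RPM in neuropil and 3.70 in somata. All circRNAs together had 23898 RPM in synaptosomes and 16367 in homogenate, and 25907 in rat neuropil and 12950 in rat somata. In rat cultures 20 reads were found with bicuculline among 24847 and 13 with water among 18233. Of 5 member circRNAs tested none was called (limma adjusted p from 0.135 to 0.965, edgeR adjusted p at least 0.573), beside 10.1% of 4120. The nearest was the Map4 circle of 5 exons, with 2 and 1 reads with bicuculline and 0 and 0 with water.

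**Figure D5:**
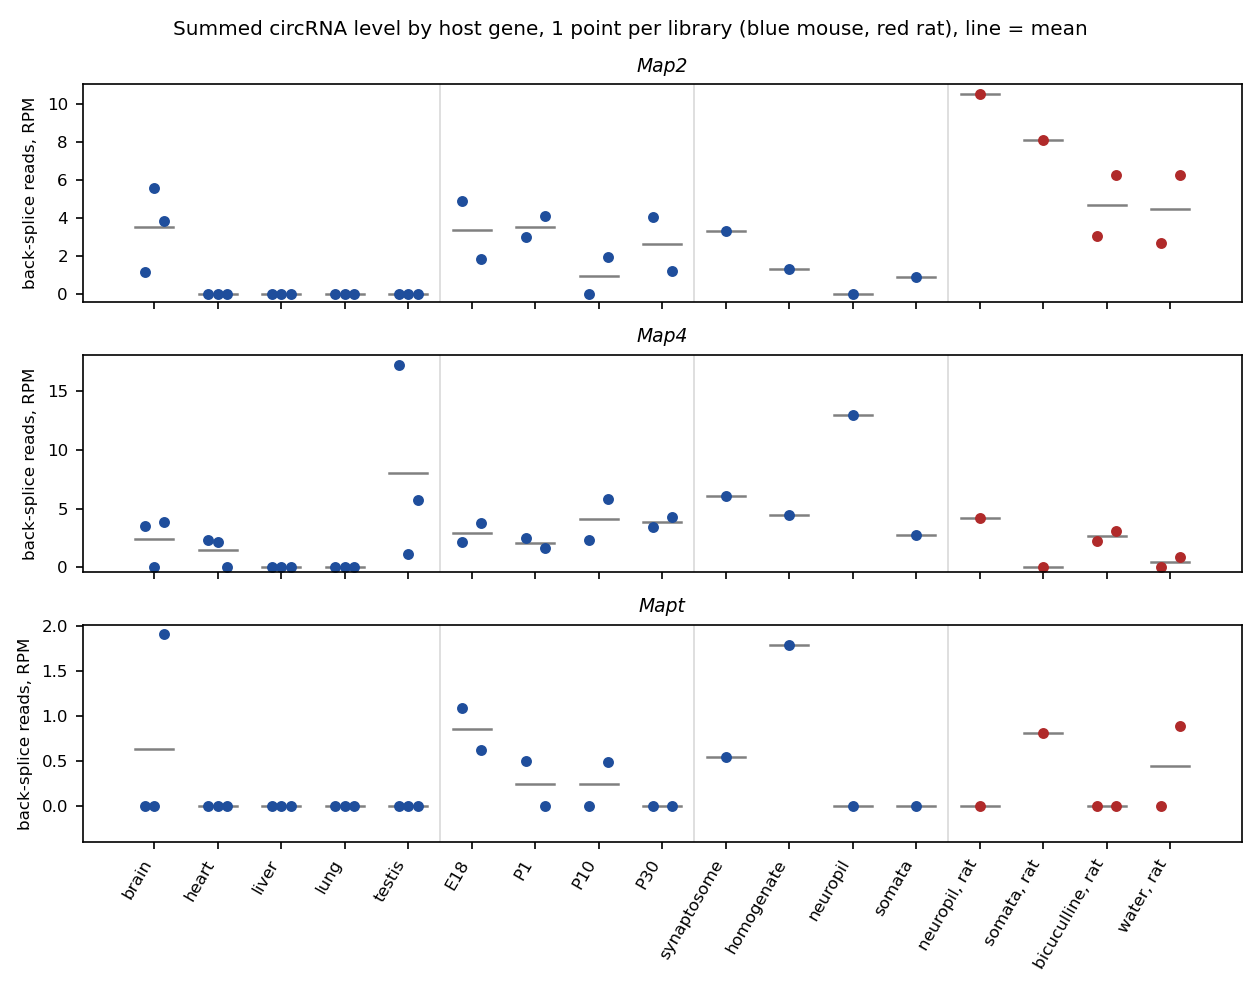
Summed circRNA level of the hosts Map2, Map4 and Mapt in RPM of back-splice reads, by tissue, hippocampal age, fraction, CA1 layer and culture; each point is a library (blue mouse, red rat) and the line is the group mean. Map2 circles appear in brain and hippocampus and in no library of heart, liver, lung or testis, and Map4 circles are highest in the 14-week testis library. Mapt circles are missing from most libraries and, where seen, mostly rest on single reads.

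The genes lie on several chromosomes of GRCm38 (GENCODE M21): Map2 at chr1:66175273-66442583, Map1a at chr2:121289600-121310832, Map4 at chr9:109931460-110083955, Nefh at chr11:4938754-4948064, Mapt at chr11:104231390-104332090, Map1b at chr13:99421446-99516540, Nefl at chr14:68083863-68089095, Nefm at chr14:68082590-68124846 and Ina at chr19:47014698-47025327. The span of Nefl lies inside the annotated span of Nefm on the other strand, and Map1a overlaps Ppip5k1 and Ina overlaps Nt5c2 in the same way. Antisense RNA genes are annotated over Map1a, Map2, Map4 and Mapt. The sources used here do not say whether counting used strand, and without strand reads of overlapping genes cannot be told apart.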

How the data were processed

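RNA was extracted with TRIZOL and sequenced on Illumina machines, per the labels. Cufflinks 2.2.1, TopHat2 2.0.6 and CASAVA 1.8.2 are listed, with builds mm9 and rn5, per the submitters' processing notes. The deposited TPM tables gave gene levels. The deposited circRNA tables hold RPM of back-splice reads, with a denominator that the labels leave unstated; 100% of values were whole multiples of 1 read within a tolerance of 0.1. The circRNA lists also hold the number of exon blocks as deposited by the authors. A sample read on another sequencer was not analysed here.

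Genes with at least 1 TPM in 3 (tissues) or 2 libraries (hippocampus, cultures) were tested with limma 3.58.1 (R 4.3.3) on log2(TPM + 1), two-sided, with the Benjamini-Hochberg adjustment over all features and a threshold of 0.05. Each fit used all libraries of its set. CircRNAs were tested likewise with pseudocounts of 1.18 (tissues), 0.578 (hippocampus) and 0.838 RPM (cultures), and recovered reads with edgeR 4.0.16 as an alternative. The code was tested on simulated data. Members and lists (79 other genes in 7 lists) were chosen with earlier results of these data known. Named were all members, of each list the 2 genes with the lowest adjusted p in each direction, and in pairs the highest and lowest. Mouse symbols were matched through RefSeq synonyms (GRCm38.p6). Some of the genes nearest in pattern to Map4 and Map1b are not reported here.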

Additional observations from a re-analysis of the deposited data

Results flagged for a closer look

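Map1a had a log2 ratio of neuropil over somata of 0.27 in mouse and of -0.02 in rat. It was singled out because the sign of the ratio differed between the species. The rat libraries were nearly equal, with 208 TPM in neuropil and 210.0 in somata, so no reversal is shown. With 1 library each, the difference was not tested.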

How the results depend on the processing

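Of 1464 recomputed values over all 90 member tests, 1418 kept their direction and side of the threshold, 11 lost and 5 gained a call, and 30 reversed, each of these in a difference that was not called. With equal library medians, Map4 in brain against heart became -0.47 and Map1b at P30 against P10 -0.17. Leaving out a replicate turned the sign of these differences. At P30 against E18 it gave -0.46 to 0.28 for Map1b (0.07 without P30 replicate 1, 0.28 without E18 replicate 2) and -0.12 to 0.50 for Map2. At P1 against E18 it gave -0.18 to 0.50 for Map1a, -0.74 to 0.0081 for Map1b, -0.34 to 0.29 for Map2, -0.48 to 0.11 for Mapt, -0.35 to 0.87 for Nefl, -0.52 to 0.43 for Nefm and -0.055 to 0.28 for Nefh. At P10 against P1 it gave -0.0072 to 0.55 for Map1b and -0.020 to 0.54 for Map2, and at P30 against P10 -0.27 to 0.28 for Map1b, -0.18 to 0.086 for Map2 and -0.39 to 0.30 for Nefm. With bicuculline it gave -0.11 to 0.21 for Map2, -0.13 to 0.31 for Map4, -0.20 to 0.65 for Nefm, -0.59 to 0.073 for Nefh and -0.16 to 0.60 for Ina. Ina at P30 against P10 (0.48) was called without E18 replicate 1 (limma adjusted p = 0.0499).

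Of 257 recomputed values for 20 tests of member circRNAs, 246 kept their direction and side of the threshold, 3 gained a call and 8 reversed. With equal circRNA totals at P30 against E18, the Map2 circles of 9 and 17 exon blocks became -0.068 and -0.12. Leaving out a replicate gave -0.48 to 0.52 for the Map2 circle of 17 blocks and -1.16 to 0.17 for the Map4 circle of 242 bases at P30 against E18. With bicuculline it gave -1.18 to 0.11 for the rat Map2 circle of 8 blocks, -0.29 to 1.00 for that of 4 blocks, and -0.28 to 1.00 for Map4 242 + 69. Leaving out a library moved 1 Map4 circRNA rate of a tissue out of its counting interval, that of testis; this alternative was chosen after seeing the data. Of the member ratios in single-library pairs, 100 moved little and 8 moved.

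Genes past 2-fold numbered 1631 with a pseudocount of 5 TPM against 2949 in synaptosomes, 2195 and 440 with 0.1 and 5 TPM against 1374 in mouse neuropil, 2157 and 436 against 1390 in rat neuropil, and 2327 with 5 TPM against 3890 in the poly(A) pair. Genes called at P1 against E18 numbered 267, 17 with no filter on low values, and 19 to 153 without a replicate. They numbered 5437 at P10 against P1 (2794 to 5178) and 4561 at P30 against P10 (2219 to 5126). With bicuculline they numbered 343, 78 with no filter, and 33 to 598 without a replicate (33 without bicuculline replicate 1, 42 without replicate 2, 598 without water replicate 2).

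CircRNAs called for brain numbered 2827, 655 with at least 20 reads, 1010 with equal circRNA totals, and 1576 to 2669 without a replicate. At P30 against E18 they numbered 1095, 15 with no filter, 500 with at least 20 reads, 245 with edgeR, and 0 to 1061 without a replicate. With bicuculline they numbered 415, 1 with at least 20 reads, and 0 with no filter, with equal totals, with edgeR, or without any 1 replicate. The cause of these differences was not tested.

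Same-numbered replicates are not said to be paired; their deviations correlated at 0.0159 to 0.0982 in tissues, 0.0555 to 0.351 in hippocampus and 0.588 in the cultures, which have only 2 pairs. With the replicate number as a block, 657 genes were called at P1 against E18 and 3298 with bicuculline, where limma's adjusted p became 0.00107 for Map1a, 9.03e-05 for Map1b and 4.46e-08 for Nefl.

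Member circRNAs rest on at most 40 reads each over all libraries of a species, so differences between groups were mostly not detectable at this depth; the depth behind TPM is unknown, and the fractions and CA1 layers have 1 library each.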
